A study of Homo sapiens with 4 samples.

Results

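The genes described here encode the enzymes that add methyl groups to histone lysines or remove them, together with the scaffold subunits of Polycomb repressive complex 2 (PRC2). They were chosen by a rule on gene symbols, with earlier results of these data known. The rule took in the KMT, KDM, SETD, SETDB, NSD and SMYD families. It also took in EZH1 and EZH2, EHMT1 and EHMT2, SUV39H1 and SUV39H2, DOT1L, SUZ12, EED and JARID2. The set numbers 53 of the 15490 protein-coding genes in a table of 28814 genes. All 53 passed the filter on low counts, which kept 16862 genes, 12639 of them protein-coding. SMYD1, KDM4E, KDM4F and 1 H3K4 methyltransferase gene were not analysed here. The cells were of the line 697, an established human B-cell precursor acute lymphoblastic leukaemia line. One group of 2 libraries came from cells kept for 24 h with 1 µM MZ1, and the other group of 2 libraries came from cells given an equal volume of the solvent DMSO. MZ1 is a chimaeric molecule that brings proteins of the BET bromodomain family to the VHL ubiquitin ligase, which leads to their degradation. All libraries stem from a single cell line, and the labels do not state whether replicates were separate cultures, so that p-values reflect library-to-library spread, possibly technical only.

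Methyl groups on histone lysines do not act by themselves but are bound by reader proteins, and their meaning depends on the residue. H3K4 methylation marks active promoters and enhancers, H3K36 and H3K79 methylation marks transcribed gene bodies, H3K9 methylation marks heterochromatin, H3K27 methylation by PRC2 holds lineage genes silent, and H4K20 methylation is tied to chromosome compaction and replication. Writers use S-adenosylmethionine as the methyl donor. Erasers are either the flavin-dependent KDM1 enzymes or the JmjC enzymes, which need iron, oxygen and 2-oxoglutarate. Several members are recurrent targets of mutation or of drugs in blood cancers, among them EZH2, NSD2, SETD2, KMT2D, KDM6A and DOT1L.

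The libraries held 14544789 and 14246367 counted reads with MZ1 and 16005427 and 16488005 with DMSO. The labels mention no spike-in, and every level is therefore a share of its library, and in a bulk sample fewer cells of a type and less RNA per cell cannot be told apart. Mitochondrially encoded genes took up 8.98% and 9.26% of counts with MZ1, against 5.82% and 5.48% with DMSO. The 10 B-cell precursor markers were all present and summed to 1090 and 1141 CPM (counts scaled to library size with TMM) with MZ1, against 3813 and 3823 CPM with DMSO. The 4 myeloid markers with a row summed to 21.1 and 17.2 CPM with MZ1, against 6.35 and 5.31 CPM with DMSO. Of these markers LYZ, MPO and CD14 were higher with MZ1, and MPO was at 0 counts with DMSO, while CSF1R went the other way, with 0.99 and 0.87 CPM with MZ1, against 5.62 and 4.66 CPM with DMSO. The 2 erythroid markers with a row summed to 2.90 and 2.39 CPM with MZ1, against 0.12 and 0.47 CPM with DMSO, and the T cell markers were not analysed here. The part of these shifts in the results below was not tested.

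Of the 53 genes, 20 rose and 27 fell with MZ1 in edgeR's quasi-likelihood test (Benjamini-Hochberg adjusted p below 0.05 over all tested genes), and 6 were not called. The called share of 88.7% lies near the background of 84.2% of all tested genes (42.8% higher and 41.3% lower) and 87.3% of protein-coding genes (38.5% higher and 48.8% lower), so the number of calls says nothing about these genes as a set. The groups did not overlap for 50 of the 53 genes, against 91.3% of all tested genes and 93.3% of protein-coding genes. Changes of at least 2-fold were found for 20 members, 10 in each direction, against 55.2% of all tested genes (29% higher and 26.2% lower) and 52.1% of protein-coding genes (22.2% higher and 29.9% lower). Their median log2 fold change (MZ1 over DMSO) was -0.29, that of all tested genes 0.05 and that of protein-coding genes -0.20. With upper-quartile scaling in place of TMM, the log2 fold changes of all tested genes moved up by a median of 0.27, and 26 members were then higher and 23 lower. The shift was 0.21 when protein-coding genes alone set the scaling and 0.16 with a stricter count filter. A permutation of 2 libraries against 2 cannot reach a two-sided p below 0.333, and the calls therefore rest on the variance that edgeR shares across genes.

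**Figure D1:**
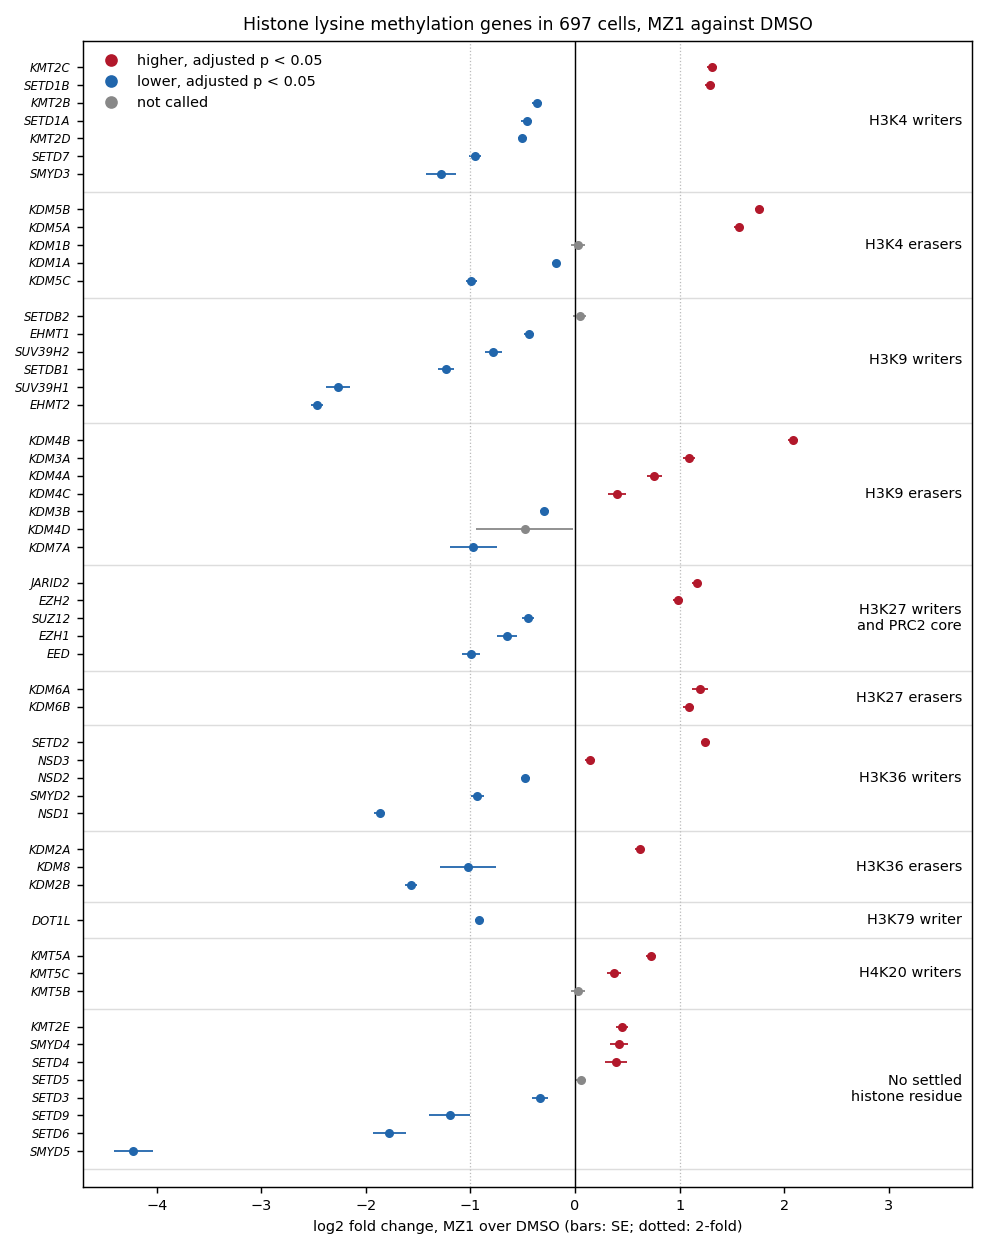
Log2 fold change, MZ1 over DMSO (horizontal axis), of 52 members grouped by the residue that they write or erase; points are edgeR estimates, bars their standard errors, and dotted lines mark 2-fold. Of the 6 H3K9 writers 5 lie left of 0, both genes listed as H3K27 erasers lie right of 1, and SMYD5 at -4.22 lies farthest left (KDM5D is not drawn).

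The promoters of 4 genes are printed here because these genes mark the ends of the response or are its best-known enzymes. SMYD5, with the largest fall, and EHMT2, the H3K9 writer with the largest fall, stand beside KDM4B, the H3K9 eraser with the largest rise, and EZH2, a catalytic subunit of PRC2. Each sequence is a 300-base window from RefSeq (GRCh38.p14), from 250 bases before an annotated start to 50 after it, read 5′ to 3′ on the strand of the gene. The windows are chr2:73213995-73214294 (plus strand) for SMYD5, chr6:31897649-31897948 (minus strand) for EHMT2, chr19:4968863-4969162 (plus strand) for KDM4B and chr7:148884242-148884541 (minus strand) for the upstream of 2 annotated EZH2 starts. Capitals mark matches of the motifs searched, described after the sequences.
SMYD5: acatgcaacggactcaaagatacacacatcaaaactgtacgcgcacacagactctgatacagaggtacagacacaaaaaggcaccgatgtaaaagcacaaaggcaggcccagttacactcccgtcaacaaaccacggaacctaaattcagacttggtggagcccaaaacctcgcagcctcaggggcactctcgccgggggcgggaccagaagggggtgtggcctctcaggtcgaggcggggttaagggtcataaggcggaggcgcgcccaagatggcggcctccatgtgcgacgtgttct
EHMT2: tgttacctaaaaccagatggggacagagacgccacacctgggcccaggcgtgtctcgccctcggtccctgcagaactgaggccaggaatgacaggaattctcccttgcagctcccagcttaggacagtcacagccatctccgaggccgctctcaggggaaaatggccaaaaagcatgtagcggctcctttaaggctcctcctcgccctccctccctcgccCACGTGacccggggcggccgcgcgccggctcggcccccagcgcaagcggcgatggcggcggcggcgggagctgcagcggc
KDM4B: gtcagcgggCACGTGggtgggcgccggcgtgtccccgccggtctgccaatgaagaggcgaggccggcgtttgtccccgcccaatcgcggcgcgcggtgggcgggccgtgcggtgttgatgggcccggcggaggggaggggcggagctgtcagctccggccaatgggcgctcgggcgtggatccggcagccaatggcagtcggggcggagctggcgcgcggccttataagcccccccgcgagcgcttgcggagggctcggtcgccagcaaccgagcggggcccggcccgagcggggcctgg
EZH2: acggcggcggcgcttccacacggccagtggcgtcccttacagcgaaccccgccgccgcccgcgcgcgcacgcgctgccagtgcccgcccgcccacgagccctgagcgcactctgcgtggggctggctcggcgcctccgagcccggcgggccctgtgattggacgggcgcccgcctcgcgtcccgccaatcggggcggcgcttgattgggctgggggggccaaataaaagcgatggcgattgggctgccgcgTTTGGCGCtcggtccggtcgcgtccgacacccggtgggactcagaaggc
Motifs were searched on both strands: the E-box CACGTG (bound by MYC and MAX, among others), the E2F motifs TTTCGCGC and TTTGGCGC, and the cAMP response element TGACGTCA. The table held 71 promoter windows for 50 of the 53 genes. The E-box was found in 10 of the 71 windows (14.1%), which belong to 9 genes, against 7.26% of all 35116 windows and 9.14% of windows of tested protein-coding genes. Of these 9 genes, EHMT2, NSD1, SETDB1, SETD6 and KMT2D fell and KDM4B, KDM6A, KDM4C and SMYD4 rose. The E-box letters thus stood in promoters of genes that moved in either direction, as the EHMT2 and KDM4B lines show. The SETDB1 windows with an E-box overlap and share the same site, which was therefore counted in more than 1 window. Overlapping windows were not removed from the background either. An E2F motif stood in 1 window (1.41%, against 1.15% of all windows and 1.82% of windows of tested protein-coding genes), that of EZH2 at the start site. The cAMP response element stood in 2 windows (2.82%, against 1.85% of all windows and 2.73% of windows of tested protein-coding genes), those of JARID2, which rose, and SUV39H2, which fell. The SMYD5 window held none of these letters, which says nothing about the factors that bind them.

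Of the 6 H3K9 writers that the symbol rule took in, 5 fell, 0 rose and 1, SETDB2, was not called (median log2 fold change -1.01), although SETDB2 was called higher with upper-quartile scaling, protein-coding scaling and the stricter count filter. PRDM2, an H3K9 methyltransferase outside the symbol rule, rose 4.81-fold and is described with the partner genes. EHMT2 (G9a; chromosome 6, 31879759 to 31897687, GRCh38), which makes H3K9 dimethylation in euchromatin, had 32.3 and 30.5 CPM with MZ1, against 172 and 175 CPM with DMSO. Both MZ1 libraries lay far below both DMSO libraries, a 5.52-fold fall (log2 fold change -2.47 ± 0.06, SE; edgeR adjusted p = 2.59e-22), and EHMT2-AS1, an antisense gene, overlaps 8.12% of its exons by length. Its partner in the same heterodimer, EHMT1 (GLP), had 114 CPM in both MZ1 libraries, against 156 and 154 CPM with DMSO. EHMT1 fell 1.36-fold, so that the ratio of EHMT1 to EHMT2 in CPM per kb of exon was 1.16 and 1.23 with MZ1, against 0.297 and 0.289 with DMSO. The partners' order differed, with EHMT1 above EHMT2 in both MZ1 libraries and below it in both DMSO libraries.

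The trimethylating enzymes of pericentromeric heterochromatin also fell. SUV39H1 (chromosome X, 48695554 to 48709012) had 7.57 and 7.37 CPM with MZ1, against 35.4 and 36.4 CPM with DMSO, a 4.80-fold fall (log2 fold change -2.26 ± 0.12; edgeR adjusted p = 1.99e-15). An antisense gene covers 20.3% of its exonic length, and without strand information reads of the pair cannot be told apart. Its paralog SUV39H2 had 27.4 and 28.3 CPM with MZ1, against 47.7 and 47.9 CPM with DMSO, a 1.72-fold fall. Per kb of exon SUV39H1 reached 0.293 and 0.276 of the SUV39H2 level with MZ1, against 0.786 and 0.805 with DMSO. SETDB1, which silences endogenous retroviruses together with TRIM28, had 27.9 and 25.6 CPM with MZ1, against 65.1 and 60.9 CPM with DMSO, a 2.36-fold fall. CERS2 on the opposite strand overlaps 13.4% of the SETDB1 exons by length. In both paralog pairs and in SETDB1 the MZ1 libraries lay below the DMSO libraries. SETDB2 had 55.5 and 55.4 CPM with MZ1, against 53.0 and 54.6 CPM with DMSO (log2 fold change 0.04 ± 0.07; edgeR adjusted p = 0.54). Its log2 fold change was 0.31 with upper-quartile scaling, 0.25 with protein-coding scaling and 0.20 with the stricter count filter. Summed per kb of exon, the 6 H3K9 writers reached 31.7 and 31.3 with MZ1, against 71.6 and 71.9 with DMSO, 2.28-fold lower.

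Of the 7 H3K9 erasers 4 rose, 2 fell and 1, the scarce KDM4D, was not called (median log2 fold change 0.40), and 4 rose and 1 fell with upper-quartile or protein-coding scaling. KDM4B (chromosome 19, 4969113 to 5153595), a JmjC enzyme acting on trimethylated H3K9, had 281 and 272 CPM with MZ1, against 65.5 and 64.7 CPM with DMSO. It rose 4.25-fold, the largest rise of the 53 genes (log2 fold change 2.09 ± 0.05; edgeR adjusted p = 2.55e-22). Its relatives KDM4A and KDM4C rose by less, 1.69-fold and 1.32-fold, and other genes overlap 48.5% of the exonic length of KDM4A, which leaves its count uncertain. KDM3A, which removes H3K9 mono- and dimethylation and is known as a hypoxia-induced gene, had 129 and 130 CPM with MZ1, against 63.4 and 58.4 CPM with DMSO, a 2.13-fold rise. Its paralog KDM3B moved the other way, 1.23-fold down, a fall that was lost with upper-quartile scaling (-0.02) and with scaling by protein-coding genes (-0.09). KDM7A fell 1.96-fold at a low level, with 2.90 and 3.61 CPM with MZ1 and 6.11 and 6.67 CPM with DMSO. KDM4D stood at 21 reads over the MZ1 libraries and 35 over the DMSO libraries (log2 fold change -0.48 ± 0.47), too few to show a change of this size. Summed per kb, the H3K9 erasers reached 65.2 and 66.6 with MZ1, against 46.0 and 45.4 with DMSO. The 6 writers thus summed to less than the 7 erasers in both MZ1 libraries and to more in both DMSO libraries, in CPM per kb. With PRDM2 added, the writers reached 62.1 and 61.8 with MZ1, against 77.8 and 78.4 with DMSO. PRDM2 made up about as much of the MZ1 sum as the 6 genes together. The writers then lay close to the erasers with MZ1, but no JmjC gene outside the symbol rule was added to the erasers. Among those JmjC genes, JMJD1C rose 4.49-fold and PHF2 fell 3.16-fold.

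**Figure D2:**
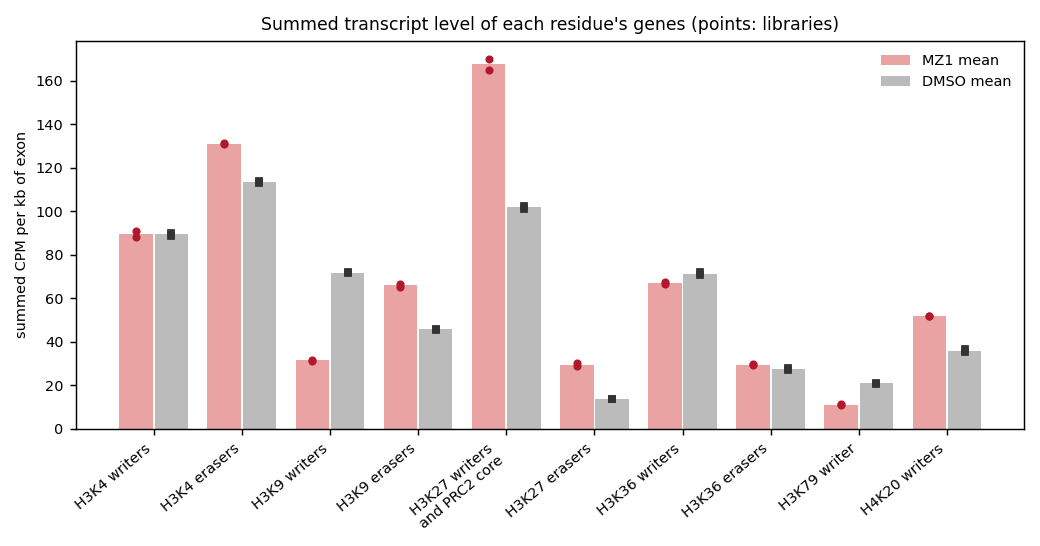
Summed level of the genes of each residue (vertical axis, TMM-normalised CPM per kb of exonic length, starting at 0); bars are means of 2 libraries, red circles are MZ1 libraries and dark squares DMSO libraries. H3K9 writers stand at 31.5 with MZ1 and 71.8 with DMSO, H3K27 erasers at 29.5 with MZ1 and 13.6 with DMSO, and H3K4 writers at 89.4 in either group (KDM5D is left out).

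PRC2 subunits split. EZH2 (chromosome 7, 148807383 to 148884321), the methyltransferase of dividing cells, had 373 and 349 CPM with MZ1, against 183 and 182 CPM with DMSO, a 1.98-fold rise (log2 fold change 0.99 ± 0.04; edgeR adjusted p = 1.7e-16). JARID2, a cofactor that helps recruit the complex and lacks demethylase activity, had 405 and 395 CPM with MZ1, against 179 and 178 CPM with DMSO, a 2.24-fold rise. The other subunits fell. EZH1, the paralog of EZH2 that prevails in resting cells, had 27.02 and 32.8 CPM with MZ1, against 42.9 and 51.0 CPM with DMSO, a 1.57-fold fall. EED, which binds the trimethylated product and boosts the enzyme, fell 1.996-fold, to 21.1 and 22.7 CPM with MZ1, against 44.6 and 42.8 CPM with DMSO. SUZ12, the scaffold that holds the enzyme and EED together, fell 1.36-fold to 86.2 and 93.9 CPM with MZ1, against 129 and 117 CPM with DMSO. The catalytic subunit EZH2 therefore stood higher in both MZ1 libraries than in both DMSO libraries. The alternative catalytic subunit EZH1 and the obligate partners EED and SUZ12 stood lower. Per kb of exon the ratio of EZH2 to EZH1 was 21.4 and 16.5 with MZ1, against 6.60 and 5.50 with DMSO.

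Both genes listed as H3K27 erasers rose. KDM7A, listed with the H3K9 erasers, also acts on H3K27, and it fell 1.96-fold at a low level. KDM6A (UTX; chromosome X, 44873177 to 45112602), which also belongs to the complexes of KMT2C and KMT2D, had 65.6 and 61.9 CPM with MZ1, against 26.8 and 28.9 CPM with DMSO, a 2.29-fold rise (edgeR adjusted p = 1.52e-13). KDM6B (JMJD3; chromosome 17, 7839904 to 7854796), a signal-induced eraser, had 153 and 146 CPM with MZ1, against 70.1 and 70.4 CPM with DMSO, a 2.12-fold rise (edgeR adjusted p = 5.1e-16). Their ratio per kb, KDM6A over KDM6B, was 0.436 and 0.433 with MZ1 and 0.389 and 0.417 with DMSO.

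**Figure D3:**
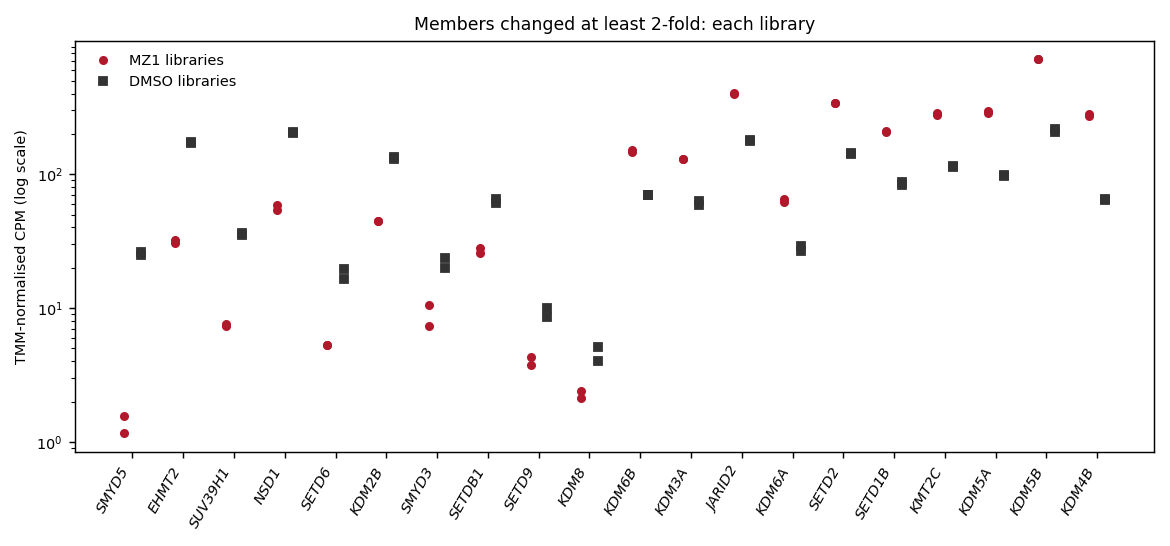
TMM-normalised CPM in each library (vertical axis, log scale) of the 20 members changed at least 2-fold, ordered by log2 fold change; red circles are MZ1 libraries and dark squares DMSO libraries. The groups do not overlap for any of the 20 genes, from SMYD5 at the left to KDM4B at the right.

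At H3K4, paralogs in the same kind of complex went opposite ways. Of 7 writers 2 rose and 5 fell (median log2 fold change -0.46). KMT2C (MLL3; chromosome 7, 152134922 to 152436005), an enhancer H3K4 monomethyltransferase, had 287 and 279 CPM with MZ1, against 116 and 112 CPM with DMSO, a 2.48-fold rise. KMT2D (MLL4; chromosome 12, 49018975 to 49059774), which shares this function, had 392 and 382 CPM with MZ1, against 539 and 559 CPM with DMSO, a 1.42-fold fall. KMT2C stood at 0.747 and 0.743 of the KMT2D level per kb with MZ1, against 0.219 and 0.205 with DMSO. The same split held for the enzymes that make most promoter H3K4 trimethylation. SETD1B had 208 and 209 CPM with MZ1, against 83.4 and 87.4 CPM with DMSO, a 2.44-fold rise. SETD1A had 85.6 and 79.5 CPM with MZ1, against 113 and 115 CPM with DMSO, a 1.38-fold fall.

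The remaining H3K4 writers fell. KMT2B, which trimethylates H3K4 at CpG-rich promoters, had 126 and 124 CPM with MZ1, against 156 and 166 CPM with DMSO (1.28-fold lower), a call that was lost with upper-quartile scaling (-0.09). SETD7, a monomethyltransferase with many non-histone substrates, fell 1.94-fold. SMYD3 had 10.5 and 7.37 CPM with MZ1, against 23.6 and 20.1 CPM with DMSO, a 2.43-fold fall. The H3K4 writers summed to 90.8 and 87.9 CPM per kb with MZ1, against 88.7 and 90.2 CPM per kb with DMSO, groups that overlap.

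Of the 6 H3K4 erasers 2 rose, 2 fell and 2 were not called, a split that depends on the scaling: 5 were called higher and 1 lower with upper-quartile scaling, 4 higher and 1 lower with protein-coding scaling, and 3 higher and 1 lower with the stricter count filter. KDM5B (JARID1B; chromosome 1, 202724495 to 202809470), known from slow-cycling tumour cells, had 721 and 720 CPM with MZ1, against 206 and 219 CPM with DMSO, a 3.39-fold rise (log2 fold change 1.76 ± 0.04; edgeR adjusted p = 2.88e-22). KDM5A, which binds the retinoblastoma protein, had 288 and 294 CPM with MZ1, against 97.4 and 99.5 CPM with DMSO, a 2.96-fold rise. Their X-linked paralog KDM5C fell 1.99-fold, with 85.1 and 91.2 CPM with MZ1 and 170 and 181 CPM with DMSO. Per kb of exon KDM5B lay above KDM5C with MZ1 (ratios 2.86 and 2.66) and below it with DMSO (0.409 and 0.408). In CPM, however, KDM5B lay above KDM5C in both groups. The order with DMSO thus turns on the exonic lengths used, 25882 bases for KDM5B and 8727 for KDM5C. KDM1A (LSD1), a flavin-dependent eraser, had the highest level per kb of the H3K4 erasers in either group. In CPM, KDM5B lay above KDM1A with MZ1. KDM1A had 324 and 323 CPM with MZ1, against 367 CPM in both DMSO libraries. This change of -0.18 ± 0.04 on the log2 scale turned to 0.09 with upper-quartile scaling, where KDM1A was called higher (edgeR adjusted p = 0.0465), and to 0.02 when protein-coding genes set the scaling, so its direction depends on the scaling. KDM1B had 54.7 and 53.6 CPM with MZ1, against 55.2 and 51.3 CPM with DMSO, and was not called, except with upper-quartile scaling (log2 fold change 0.30), protein-coding scaling (0.23) and the stricter count filter (0.19). KDM5D, on the Y chromosome, was not called in the TMM fit either but was called higher with upper-quartile (0.24) and protein-coding scaling (0.18), and its level is not given.

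**Figure D4:**
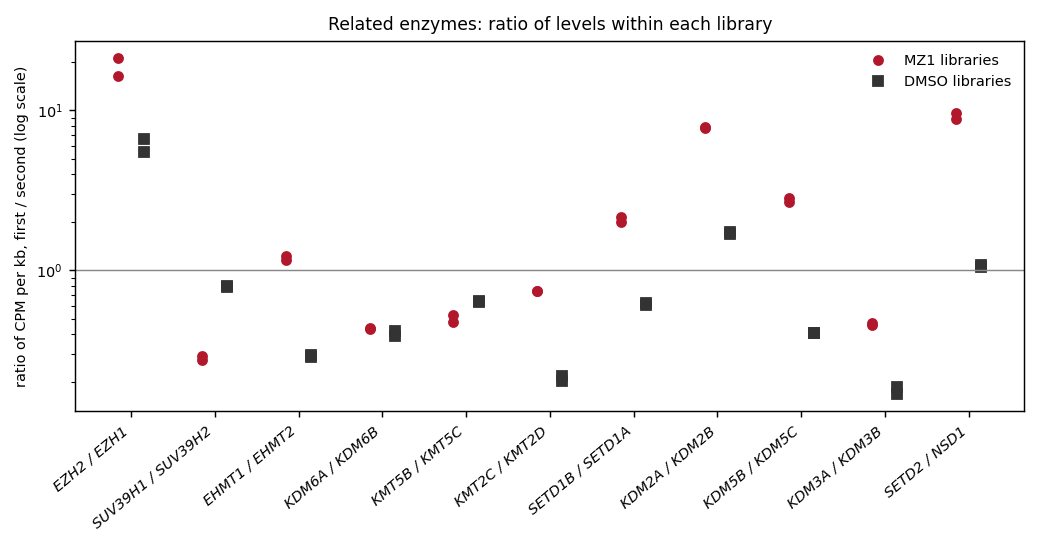
Ratio of the levels of related enzymes within each library (vertical axis, log scale, TMM-normalised CPM per kb of exon, first gene over second); red circles are MZ1 libraries and dark squares DMSO libraries. EHMT1 to EHMT2 stands at 1.16 and 1.23 with MZ1 and at 0.297 and 0.289 with DMSO, whereas KDM6A to KDM6B stays between 0.389 and 0.436 in all 4 libraries; the last 5 pairs were chosen after their values were seen.

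Of the 5 H3K36 writers 2 rose and 3 fell (median log2 fold change -0.47), and 1 rose and 3 fell with unscaled library totals. SETD2 (chromosome 3, 47016429 to 47163967), which travels with elongating RNA polymerase II and places H3K36 trimethylation, had 340 and 338 CPM with MZ1, against 144 and 142 CPM with DMSO, a 2.37-fold rise (log2 fold change 1.25 ± 0.04; edgeR adjusted p = 7.56e-19). NSD1 (chromosome 5, 177133025 to 177300215), a dimethyltransferase of intergenic regions, had 54.2 and 58.4 CPM with MZ1, against 209 and 203 CPM with DMSO, a 3.65-fold fall (log2 fold change -1.87 ± 0.05; edgeR adjusted p = 1.33e-20). Per kb of exon SETD2 stood 9.63 and 8.88 times as high as NSD1 with MZ1, against 1.06 and 1.08 times with DMSO. In CPM, however, SETD2 lay below NSD1 with DMSO. The order with DMSO thus turns on the exonic lengths used, 10099 bases for SETD2 and 15493 for NSD1. NSD2 (MMSET), the H3K36 dimethyltransferase with activating mutations in childhood leukaemia, had 175 and 174 CPM with MZ1, against 244 and 241 CPM with DMSO, a 1.39-fold fall. NSD3, an H3K36 methyltransferase of the same family, was called higher by 0.15 ± 0.05 on the log2 scale. That call was lost without DMSO replicate 1 (0.09), DMSO replicate 2 (0.12) or MZ1 replicate 2 (0.13), in DESeq2 (0.10), without a count filter (0.07) and with unscaled library totals (0.07), while the value was above 0 under every alternative run. SMYD2, which methylates H3K36 and p53, fell 1.91-fold.

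The genes listed as H3K36 erasers also split, and the KDM4 enzymes, listed at H3K9, also act on H3K36. KDM2A, a CpG-island-binding JmjC enzyme, rose 1.53-fold, with 270 and 262 CPM with MZ1 and 172 and 175 CPM with DMSO. KDM2B, its paralog that brings a variant PRC1 complex to CpG islands, had 45.0 and 44.7 CPM with MZ1, against 130 and 136 CPM with DMSO, a 2.96-fold fall. KDM2A therefore stood 7.87 and 7.71 times as high as KDM2B per kb with MZ1, against 1.74 and 1.70 times with DMSO. KDM8 fell 2.03-fold on few reads, with 2.12 and 2.39 CPM with MZ1 and 4.03 and 5.13 CPM with DMSO, and an antisense gene overlaps 14.5% of its exonic length.

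DOT1L (chromosome 19, 2164149 to 2232578), the only H3K79 methyltransferase known in humans, had 126 and 125 CPM with MZ1, against 233 and 239 CPM with DMSO, a 1.88-fold fall (log2 fold change -0.91 ± 0.05; edgeR adjusted p = 1.67e-15), and opposite-strand genes overlap 11.5% of its exons by length. Of the H4K20 writers, KMT5A (SET8), the monomethyltransferase of mitosis, rose 1.65-fold, with 152 and 151 CPM with MZ1 and 90.3 and 93.1 CPM with DMSO. KMT5C rose 1.29-fold. KMT5B had 51.7 and 56.3 CPM with MZ1, against 51.8 and 54.2 CPM with DMSO, and was not called, except with upper-quartile scaling (log2 fold change 0.30), protein-coding scaling (0.23) and the stricter count filter (0.19).

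The remaining 8 genes encode SET or SMYD proteins whose histone residue is unsettled or whose known substrates are other proteins. Of these 3 rose and 4 fell, against 4 and 3 with upper-quartile or protein-coding scaling. SMYD5 (chromosome 2, 73214222 to 73227237) had 1.56 and 1.16 CPM with MZ1, against 24.9 and 26.2 CPM with DMSO, an 18.7-fold fall (log2 fold change -4.22 ± 0.19; edgeR adjusted p = 8.01e-17). It rested on 38 reads over the MZ1 libraries and 851 over the DMSO libraries. SETD6, which methylates the NF-kB subunit RELA, had 5.30 and 5.28 CPM with MZ1, against 16.5 and 19.7 CPM with DMSO, a 3.42-fold fall, and CNOT1 on the opposite strand overlaps 21.4% of its exons by length. SETD9 had 3.75 and 4.34 CPM with MZ1, against 10.02 and 8.56 CPM with DMSO, a 2.29-fold fall. SETD3, the actin histidine methyltransferase, fell 1.26-fold, a call that was lost with upper-quartile scaling (-0.06) and with scaling by protein-coding genes (-0.13). KMT2E rose 1.37-fold, SMYD4 1.34-fold and SETD4 1.31-fold, the last not called without a count filter (0.31) or by DESeq2 (0.35). SETD5 was not called (0.06 ± 0.05), except with upper-quartile scaling (0.33), protein-coding scaling (0.27) and the stricter count filter (0.22). The 3 falls of at least 2-fold in this class stand against rises of at most 1.37-fold.

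Across roles, 17 of 27 writers and PRC2 genes fell and 8 rose (median log2 fold change -0.46), while of 18 erasers 6 fell and 9 rose (median 0.21). With upper-quartile scaling 16 writers and PRC2 genes fell and 10 rose, and 4 erasers fell and 12 rose; with protein-coding scaling the counts were 17 and 10 for writers and PRC2 genes and 4 and 11 for erasers. The background for protein-coding genes was 48.8% lower and 38.5% higher, and no test of the difference between the classes was made. Among the 52 members other than KDM5D, log2 fold change correlated with log10 gene span on the chromosome at Pearson 0.37 (Spearman 0.36). The Pearson correlation was 0.33 with log10 exonic length (Spearman 0.28) and 0.03 with the log10 DMSO level per kb (Spearman -0.01). These values are given as a description of genes that share their libraries, with no value over all genes beside them.

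Partner genes came from 9 lists, chosen with earlier results of these data known. The counts below stand against 48.8% of tested protein-coding genes lower and 38.5% higher (median log2 fold change -0.20). No list was tested as a set. Of 14 subunits of the H3K4 methyltransferase complexes (COMPASS) 3 were higher and 11 lower (median log2 fold change -0.996). HCFC1, a subunit of the SETD1 complexes, fell 4.79-fold, with 101 ± 2.4 CPM with MZ1 and 483 ± 11 CPM with DMSO (SD, n = 2 each). WDR5, a subunit common to the family, fell 3.003-fold, with 53.3 ± 0.91 CPM with MZ1 and 160 ± 6.1 CPM with DMSO. RBBP5, of the same core, rose 2.04-fold and BOD1L1 2.51-fold, so the shared core did not move as one.

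Of 8 tested accessory PRC2 genes 3 were higher and 5 lower (median -0.50). PHF19, which guides PRC2 to CpG islands, fell 8.33-fold, with 15.1 ± 1.4 CPM with MZ1 and 126 ± 2.1 CPM with DMSO, and AEBP2 fell 2.95-fold. PHF1, of the same Polycomb-like family as PHF19, rose 2.03-fold, and LCOR rose 1.30-fold. Of 18 PRC1 genes 7 were higher, 9 lower and 2 not called (median -0.31). The H3K27 readers CBX2 and CBX6 fell 2.60-fold and 2.62-fold, whereas RYBP, of variant PRC1, rose 4.54-fold.

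Of 10 H3K9 readers and cofactors 3 were higher, 6 lower and 1 not called (median -0.20), a balance that turned to 4 higher and 2 lower with upper-quartile scaling (median 0.07) and to 4 higher and 3 lower with protein-coding scaling (median 0.01), and was 4 higher and 4 lower with the stricter count filter. ATF7IP, which stabilises SETDB1, rose 2.60-fold with 301 ± 5.7 CPM with MZ1 and 116 ± 2.8 CPM with DMSO, and MPHOSPH8 of the HUSH complex rose 1.91-fold. WIZ, a partner of the EHMT1 and EHMT2 dimer, fell 1.86-fold and the heterochromatin protein gene CBX1 1.46-fold. Of 11 tested KDM1A partners 5 were higher and 6 lower (median -0.36), and 5 higher and 4 lower with upper-quartile scaling. RCOR2 and RCOR1, of the CoREST scaffold family, rose 3.24-fold and 1.55-fold, and the histone deacetylase gene HDAC2 fell 1.89-fold.

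Lysine methyltransferases outside the symbol rule split, with PRDM2 (4.81-fold) and ASH1L (2.28-fold) higher and N6AMT1 (3.07-fold) and SETMAR (2.94-fold) lower among 4 tested (median -0.18). PRDM2, an H3K9 methyltransferase of the PRDM family, had 332 ± 0.41 CPM with MZ1 and 68.9 ± 2.0 CPM with DMSO. Of 7 tested JmjC proteins outside the rule 2 were higher, 2 lower and 3 not called (median -0.02), and 4 were higher and 2 lower with upper-quartile scaling. JMJD1C, related to KDM3A, rose 4.49-fold and the HIF hydroxylase gene HIF1AN 3.78-fold, while PHF2 fell 3.16-fold and RIOX1 1.79-fold.

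Of 8 tested arginine methyltransferase genes 2 were higher and 6 lower (median -1.89). PRMT1, the main enzyme for asymmetric dimethylarginine, fell 3.504-fold, with 108 ± 7.6 CPM with MZ1 and 379 ± 0.91 CPM with DMSO. CARM1 fell 4.53-fold, and PRMT2 and PRMT9 rose 1.58-fold and 1.54-fold. Of 9 genes that supply the methyl donor or 2-oxoglutarate 2 were higher, 6 lower and 1 not called (median -0.45), and 3 were higher and 5 lower with upper-quartile scaling, protein-coding scaling or the stricter count filter. IDH3B and IDH2 fell 2.27-fold and 1.98-fold, and OGDH, which consumes 2-oxoglutarate, and IDH1 rose 1.41-fold and 1.38-fold.

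**Figure D5:**
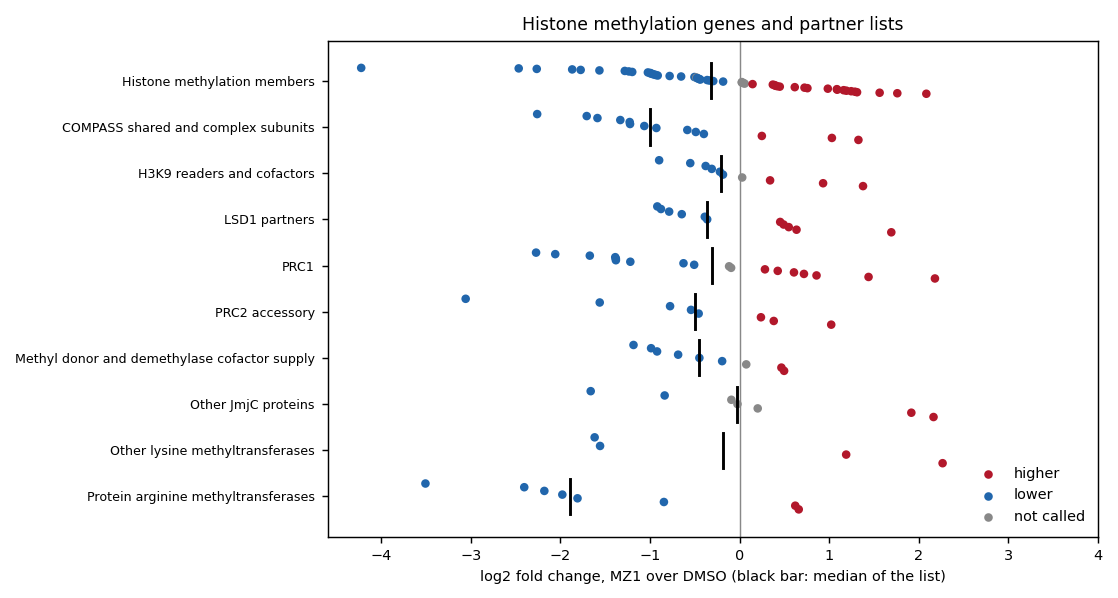
Log2 fold change, MZ1 over DMSO (horizontal axis), of the tested genes of each list; each point is a gene, coloured by its call at an adjusted p below 0.05, and black bars are list medians. The arginine methyltransferases have a median of -1.89 and the COMPASS subunits of -0.996, while histone methylation genes (52 drawn, without KDM5D) spread on both sides of 0.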

How the data were processed

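RNA of 4 libraries of 697 cells, 2 with MZ1 and 2 with DMSO, was extracted with TRIzol and prepared with an Illumina TruSeq RNA kit, per the labels' protocols. The authors deposited 1 table of raw read counts for each Ensembl gene, per the file headers; the submitters' processing notes name HISAT2 2.2.0 and hg38. No source used here states the counting program, the annotation or the strand setting. Positions, gene types and exonic lengths (the union of all exons, which lowers per-kb levels of genes with many isoforms) came from GENCODE 29 (GRCh38), where all 28814 identifiers were found.

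Counts were tested with edgeR 4.0.16 in R 4.3.3: filterByExpr, TMM, glmQLFit and glmQLFTest with treatment as the only term, and Benjamini-Hochberg adjustment over 16862 genes. Alternatives used DESeq2 1.42.0 and limma 3.58.1. The fit was also run on simulated counts in which only a small share of genes changed. That setting differs from these data, so the run cannot show whether the scaling or the calls hold here. Standard errors were computed from the unshrunk coefficients and F. Replicates differed by more than sampling noise (chi-square per degree of freedom 2.26 for MZ1 and 2.56 for DMSO). Members and lists were chosen with earlier results of these data known. Values by library are given for members changed at least 2-fold and for 17 enzymes always shown, and each partner list is represented by up to 2 rising and 2 falling genes of smallest adjusted p, of which 2 are not reported here. Related pairs other than the 6 planned were chosen after their values were seen. Protein sequences were not used here.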

Additional observations from a re-analysis of the deposited data

How the results depend on the processing

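The number of members called stayed between 45 and 50 under all 13 alternatives, against 47 in the fit reported, and 42 of the 53 genes kept both direction and call throughout. The 36 partner genes chosen by the naming rule did so as well. Over all genes the calls ranged from 11182 (stricter count filter, fewer genes tested) to 14500 (no count filter). With the replicate number as a block 13963 genes and 47 members were called. The labels do not say whether same-numbered libraries shared a culture or batch. Deviations of same-numbered libraries correlated at 0.014 across genes. With 2 libraries per group both pairs must give the same value, which cannot decide the question. Of 688 alternative values of members, 21 changed sign, all in genes close to 0. KDM1A was at 0.0882 with upper-quartile and 0.0242 with protein-coding scaling. KDM5D was at 0.243 and 0.179 with these scalings, 0.131 (stricter count filter) and 0.0242 (without DMSO replicate 2). With library totals alone and with no count filter, values were -0.0508 and -0.0512 for KDM1B, -0.0504 and -0.0508 for KMT5B, -0.0191 and -0.0195 for SETD5, and -0.0333 and -0.0336 for SETDB2. DESeq2 gave -0.0168 for KDM1B and -0.016 for KMT5B. Without MZ1 replicate 2, KMT5B was at -0.0368. Leaving out each library in turn gave values from -0.0651 to 0.039 for KDM1B, from -0.161 to 0.0242 for KDM5D, from -0.053 to 0.0934 for KMT5B, from -0.0013 to 0.0952 for SETD5 and from -0.0258 to 0.0479 for SETDB2. The cause was not tested. Depth limits KDM4D, KDM7A, KDM8 and SMYD5, which had 50 reads or fewer in at least 1 library. Intervals and standard errors do not cover a change in total RNA per cell.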

Other observations

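Other rows of the count table carry the letters of these families without being protein-coding. KMT2E-AS1, which starts beside KMT2E on the opposite strand, was at 5.23 and 5.28 CPM with MZ1, against 2.38 and 2.83 CPM with DMSO (2.01-fold higher; edgeR adjusted p = 5.74e-04), while KMT2E itself rose 1.37-fold. KDM7A-DT, a divergent transcript of the KDM7A promoter, was at 2.12 and 2.10 CPM with MZ1, against 0.73 and 1.30 CPM with DMSO (2.06-fold higher; edgeR adjusted p = 0.0163), while KDM7A fell 1.96-fold. KDM4A-AS1 was not called (log2 fold change -0.49 ± 0.24; edgeR adjusted p = 0.0586). The KMT5A pseudogenes KMT5AP1 and KMT5AP2 had 49 and 101 reads over the MZ1 libraries and 50 and 82 over the DMSO libraries, and neither was called. Without strand information, reads of overlapping antisense rows cannot be assigned to a strand.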
